A study of Zea mays with 3 samples.

Results

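Meiosis-associated genes of maize were followed in whole anthers of 1.0, 1.5 and 2.0 mm, in a line whose Mutator (Mu) transposons are active and in a line whose Mu transposons are inactive. The study's supplement lists 205 gene models as meiosis-associated. The list joins known meiosis genes of maize, maize homologs of meiotic genes from other plants, and annotated genes misregulated in anthers of the mutant ameiotic1. Many members were thus listed for changed expression in that mutant and not for a known role in meiosis. Of the 205, 2 were left out here together with their 3 probes. Of the others, 113 gene models could be paired with 149 of the 42034 probes of the array through the supplementary tables, 90 had no paired probe, and 89 of the 113 carry an entry in the RefSeq gene table. The pairing used tables of transcripts that had been detected or were enriched in a cell type, and 106 of the 149 probes stood in the list enriched in archesporial cells, which become the pollen mother cells, so detection and the bias to those cells are not independent of how the genes were chosen. No coordinates are given, because the gene models belong to an older build than that table.

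RNA of the Mu-active line and RNA of the Mu-inactive line were hybridised together on 12 two-colour arrays, 4 for each anther length, with the dyes exchanged on part of the arrays of each length. The Mu-active groups were Mu-active anthers of 1.0, 1.5 and 2.0 mm and the Mu-inactive groups were Mu-inactive anthers of the same lengths, with 4 replicates each, no treatment, and field-grown plants. The labels give no further genotype or background of either line, no age and no statement that the replicates came from separate plants, so p-values measure the spread between these samples, which may be technical. In the inbred W23 meiosis has not begun in anthers of 1.0 mm and prophase I is under way at 1.5 mm, a stage that other inbreds reach later, so the meiotic stage of these lines at each length is not known. The 4 arrays of one length lay on 1 slide, so anther length and slide cannot be told apart.

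In meiosis, sister chromatids are held together by cohesin, a ring of structural maintenance of chromosomes (SMC) proteins closed by a kleisin of the Rad21 or Rec8 type. Programmed double-strand breaks are cut back to single strands that are covered by replication protein A (RPA), then paired with the homologous chromosome, and resolved with the help of helicases, MutS proteins and topoisomerases. Entry into meiosis also needs control of cyclin-dependent kinases and removal of proteins by ubiquitin ligases such as the SCF complex, of which Skp1 is the adaptor. Whole anthers hold only a minority of meiotic cells among epidermis, endothecium, middle layer, tapetum and connective, so that fewer cells of a type and less RNA per cell cannot be told apart.

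What each value measures is the hybridisation of 1 probe of 60 bases, and sequences were given for 26 of the 149 probes, of 24 genes. Those of 4 genes described in the results are shown 5′ to 3′ in lower case, with no part set apart, because the tables mark none. The gene GRMZM2G061023, annotated with a RuvA-like domain, is shown with both of its probes, whose longest shared run was 6 bases.
GRMZM2G006452, SMC protein: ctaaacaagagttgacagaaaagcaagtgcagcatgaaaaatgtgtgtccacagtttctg
GRMZM2G115013, RPA1a: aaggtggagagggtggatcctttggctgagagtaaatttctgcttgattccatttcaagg
GRMZM2G101613, cki2: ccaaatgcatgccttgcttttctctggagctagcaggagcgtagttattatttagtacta
GRMZM2G061023, brighter probe: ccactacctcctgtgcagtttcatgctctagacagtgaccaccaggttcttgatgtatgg
GRMZM2G061023, other probe: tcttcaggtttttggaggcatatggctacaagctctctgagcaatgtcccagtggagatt

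Intensities are given on a linear scale after normalization within arrays and across all 24 channels, in the order of arrays 1 to 4 of a length, and each gene is represented by its brightest probe. Changes between lengths are log2 values of the later over the earlier length with the SE of the limma fit, and p-values were adjusted by Benjamini-Hochberg over the 42034 probes. A change was called at an adjusted p under 0.05 and a log2 change of at least 0.58 in either direction. Which channel held which line is likely but not certain, since the labels' dye order taken by array number would give the opposite. The assignment used here rests on the 1.0 mm values of the supplement, against which the ratio of the lines had a Pearson r of 0.900 across 1203 probes, and on the deposited ratios of the 3 lengths. If it were wrong, the names Mu-active and Mu-inactive would be exchanged throughout.

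Signal was low in these arrays. Before normalization, the median probe of a Mu-active channel stood above its mean negative control by a factor of 1.49 to 3.15 in anthers of 1.0 mm, 1.23 to 1.45 for 1.5 mm and 1.25 to 1.44 for 2.0 mm. For Mu-inactive channels this quotient was 1.65 to 2.27, 1.29 to 1.44 and 1.21 to 1.88. Of the 894 sets of 4 spots that the 149 probes gave over both lines and 3 lengths, 796 were well above background on all 4 arrays and 10 on none. The normalization sets the level of all probes equal at each length: without the step between arrays, the median of all probes for 2.0 over 1.0 mm was -0.49 in Mu-active and -0.48 in Mu-inactive anthers, and that for 1.5 over 1.0 mm was -0.55 and -0.53. Changes are therefore relative to the bulk of the transcripts at each length.

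Most of the meiosis-associated genes were detected at every length in both lines. A probe was ON at a length when it exceeded the mean of the 153 negative controls by 3 SD in at least 3 of 4 arrays, which required a normalized intensity of 78.7 to 90.4. By this measure 101 of the 113 genes were ON in all 6 groups, and of the 149 probes 125 were (83.9%), beside 58.3% of all probes. The number of genes ON was 109, 106 and 107 at 1.0, 1.5 and 2.0 mm in Mu-active anthers, where 75.7%, 64.5% and 67.8% of all probes were ON. In Mu-inactive anthers it was 107, 105 and 107, where 74.5%, 66.1% and 68.1% of all probes were ON.

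The 12 genes that were ON in only some groups lay close to the detection limit, and in 5 of them detection differed between lengths in both lines. Transcripts of GRMZM2G456570, annotated as the cohesin subunit SMC3, were not ON at 1.0 mm, where 2 of 4 arrays passed the limit in each line, and were ON at 1.5 and 2.0 mm in both lines. GRMZM2G464382, annotated in a supplementary table as a subunit of the exocyst, Exo70, was ON at 2.0 mm only, again in both lines. It averaged 78.3 ± 6.59 at 1.0 mm, 92.4 ± 15.6 at 1.5 mm and 88.1 ± 5.11 at 2.0 mm in Mu-active anthers, and 79.4 ± 6.86 at 1.0 mm, 89.8 ± 14.8 at 1.5 mm and 87.1 ± 1.28 at 2.0 mm in Mu-inactive anthers (SD, n = 4). GRMZM2G177461 was ON at 1.0 and 1.5 mm and not at 2.0 mm in both lines, and averaged 97.6 ± 5.40 at 1.0 mm, 97.3 ± 16.9 at 1.5 mm and 82.7 ± 8.69 at 2.0 mm in Mu-active anthers. In Mu-inactive anthers it averaged 101 ± 10.4 at 1.0 mm, 109 ± 13.4 at 1.5 mm and 89.5 ± 14.2 at 2.0 mm. AGO18a (GRMZM2G105250), an argonaute, was ON at 1.0 mm in both lines and at 2.0 mm in Mu-active anthers only. GRMZM2G300786 was ON at 1.0 mm in both lines and at 2.0 mm in Mu-inactive anthers only. The supplement describes GRMZM2G300786 as SWI1/DYAD, a protein that in Arabidopsis is needed for sister chromatid cohesion in meiosis. Whether this maize gene has that role was not tested.

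More of the genes were called higher than lower at 2.0 mm than at 1.0 mm. The genes that rose in both lines carry annotations of ubiquitin ligation, dephosphorylation, small RNA synthesis, transcription, respiration and metabolism. In Mu-active anthers 18 of the 113 genes rose and 4 fell (15.9% and 3.54%), where 4.34% of all probes were called higher and 4.42% lower. In Mu-inactive anthers 13 rose and 4 fell (11.5% and 3.54%), where 5.36% of all probes were called higher and 5.29% lower. Called in both lines were 10 genes that rose and 2 that fell, beside 2.96% and 2.73% of all probes, while 10 genes were called in Mu-active anthers only and 5 in Mu-inactive anthers only. The lines were the 2 channels of the same arrays and slides, with a correlation within arrays of 0.44, and were fitted separately. A call in both lines is therefore not an independent repeat. Among probes that were ON at 1 or more lengths, the share called higher was 5.57% in Mu-active and 6.90% in Mu-inactive anthers.

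This surplus of rises depended on the normalization. When arrays were brought only to a common median in place of common quantiles, 13 genes were higher and 15 lower in Mu-active anthers (11.5% and 13.3%), where 4.63% and 16.9% of ON probes were called. In Mu-inactive anthers the same scaling gave 8 higher and 19 lower (7.08% and 16.8%), where 5.76% and 18.1% of ON probes were called. The median change of the 113 genes for 2.0 over 1.0 mm was 0.09 in both Mu-active and Mu-inactive anthers, beside -0.01 over all probes in both. With median scaling it was -0.04 in Mu-active and -0.08 in Mu-inactive anthers, where the median of all probes was 0.10 and 0.11. Without any step between arrays the Skp1 gene GRMZM2G032562 was the only one of the 10 genes that rose in both lines to be called in both (2.74 in Mu-active and 1.21 in Mu-inactive anthers), the phosphatase GRMZM2G109496 was called in Mu-active anthers only (1.33, against 0.42 in Mu-inactive anthers), and the other 8 were called in neither line.

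**Figure D1:**
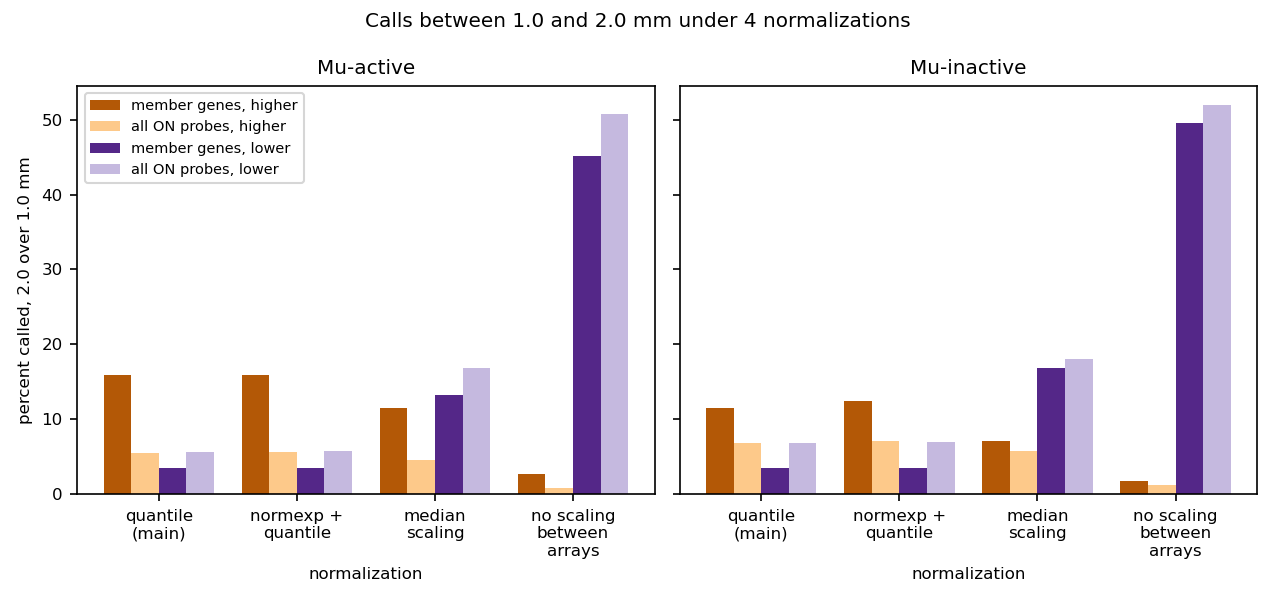
Percent of genes or probes called higher or lower at 2.0 than at 1.0 mm under 4 normalizations, for the 113 meiosis-associated genes and for all ON probes, in each line. With the normalization used in the text 15.9% of the genes were called higher in Mu-active anthers, and the split between higher and lower turned under median scaling and without the step between arrays.

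**Figure D2:**
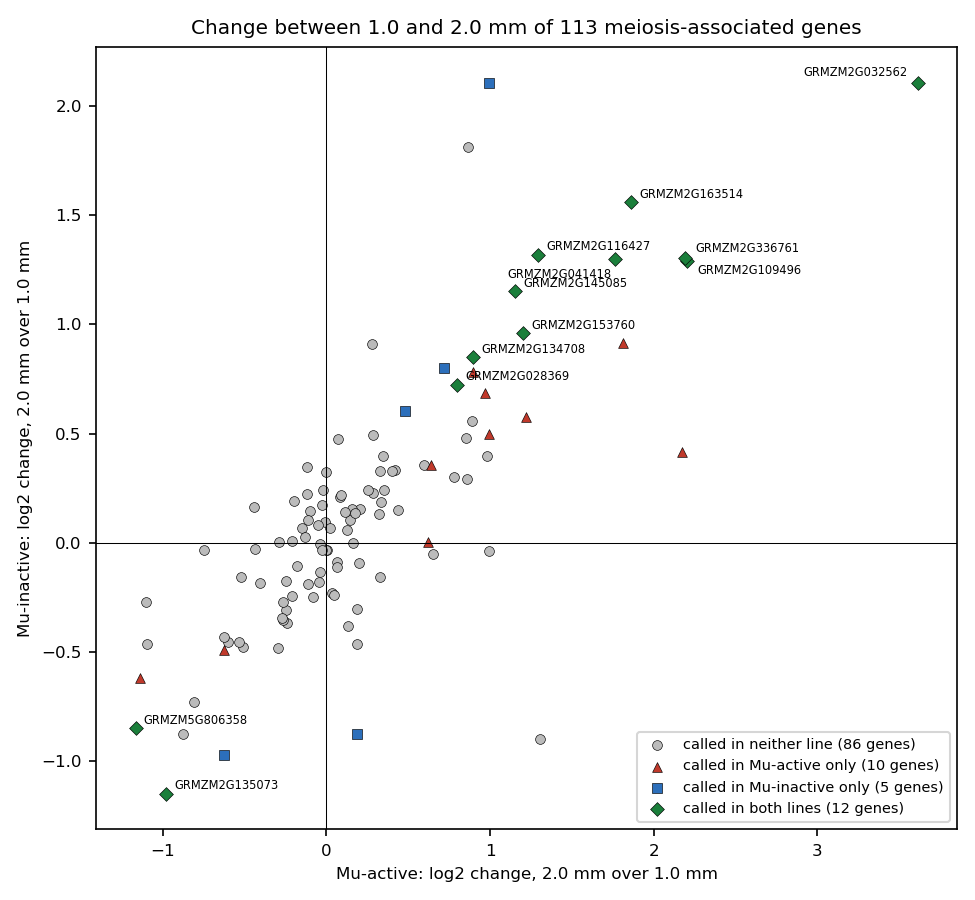
Log2 change of 2.0 over 1.0 mm in Mu-active anthers (x axis) against that in Mu-inactive anthers (y axis), 1 point per gene at its brightest probe, with the genes called in both lines, in 1 line and in neither marked. The 12 genes called in both lines lie away from the origin, at the upper right and the lower left, and 86 genes were called in neither line.

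Of the 4 cohesin and chromosome structure genes, 1 fell for 2.0 over 1.0 mm and another rose for 1.5 over 1.0 mm, both in Mu-active anthers, and neither passed the call in Mu-inactive anthers. In the same comparisons of Mu-active anthers 4.42% of all probes were called lower and 1.43% higher, respectively. In Mu-active anthers GRMZM2G074818, with a Rad21/Rec8-like N-terminus, read 645, 529, 566 and 361 at 1.0 mm, 297, 243, 217 and 350.4 at 1.5 mm, and 141, 191, 343 and 322 at 2.0 mm. In Mu-inactive anthers it had 456, 446, 405 and 352 at 1.0 mm, 177, 229, 366 and 269.6 at 1.5 mm, and 183, 253, 319.7 and 350.1 at 2.0 mm. At 2.0 mm all 4 arrays lay below all 4 of 1.0 mm in each line. The change for 2.0 over 1.0 mm was -1.14 ± 0.29 (adjusted p = 0.0292) in Mu-active anthers, where it was called lower, and -0.62 ± 0.21 (adjusted p = 0.0686) in Mu-inactive anthers, where it missed the threshold. The Mu-active call was lost when any of 5 single arrays was left out, replicates 1, 2 and 3 of 1.0 mm and replicates 1 and 2 of 2.0 mm. The other probes of this kleisin had changes of -0.12 and -0.49 in Mu-active and -0.14 and 0.06 in Mu-inactive anthers, none of them called.

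GRMZM2G006452, an SMC protein of the family that builds cohesin and condensin, was brightest at 1.5 mm. Its intensities in Mu-active anthers were 283, 251, 286 and 249.8 at 1.0 mm, 489, 361, 448 and 347 at 1.5 mm, and 246, 227, 353 and 309.9 at 2.0 mm. Its intensities in Mu-inactive anthers were 307, 224, 262 and 281 at 1.0 mm, 458, 412, 344 and 353 at 1.5 mm, and 381, 512, 314 and 311 at 2.0 mm. All arrays of 1.5 mm lay above all arrays of 1.0 mm in both lines, while those of 2.0 mm overlapped 1.5 mm. From 1.0 to 1.5 mm it rose by 0.61 ± 0.15 (adjusted p = 0.0456) in Mu-active anthers, and changed by 0.54 ± 0.14 (adjusted p = 0.0359) in Mu-inactive anthers, which passed the p threshold but not the fold, and without the step between arrays both values were negative (-0.42 and -0.46). The Mu-active call was lost in 9 of the 12 fits that left out an array, with an adjusted p of up to 0.113. Its other probes had 0.20 and 0.21 in Mu-active and 0.22 and 0.21 in Mu-inactive anthers, none of them called. For this comparison 1.43% of all probes were called higher and 1.47% lower in Mu-active anthers.

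SMC3 (GRMZM2G456570) had 76.2, 83.9, 88.8 and 80.0 at 1.0 mm, 95.6, 105, 101 and 104 at 1.5 mm, and 109.6, 115, 99.1 and 94.0 at 2.0 mm in Mu-active anthers. It had 80.1, 79.7, 88.2 and 84.8 at 1.0 mm, 94.4, 94.7, 91.9 and 104 at 1.5 mm, and 119.9, 139, 93.3 and 92.9 at 2.0 mm in Mu-inactive anthers. The arrays of 1.5 and 2.0 mm lay above those of 1.0 mm without overlap in both lines. Its changes for 2.0 over 1.0 mm of 0.34 ± 0.08 (adjusted p = 0.0188) in Mu-active and 0.40 ± 0.12 (adjusted p = 0.0424) in Mu-inactive anthers were under the fold required for a call. GRMZM2G093119, the other gene with a Rad21/Rec8-like N-terminus, was only just above the limit at every length, with 91.4 ± 5.90 at 1.0 mm, 103 ± 9.31 at 1.5 mm and 97.3 ± 4.72 at 2.0 mm in Mu-active and 98.5 ± 8.81 at 1.0 mm, 105 ± 19.3 at 1.5 mm and 115 ± 13.6 at 2.0 mm in Mu-inactive anthers (SD, n = 4 each).

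The 13 genes of DNA replication, repair and recombination had 0 calls in limma in either direction in either line for 2.0 over 1.0 mm, while 6 in Mu-active and 6 in Mu-inactive anthers had an unadjusted p under 0.05, beside 27.7% and 30.5% of all probes. With 4.34% of all probes called higher and 4.42% lower in Mu-active anthers, and 5.36% and 5.29% in Mu-inactive anthers, 0 of 13 does not set the list apart, and with median scaling the helicase GRMZM2G097605 was called lower in both lines. The changes of the 13 genes had a median of -0.11 and a range of -0.81 to 0.40 in Mu-active anthers, and a median of -0.13 and a range of -0.73 to 0.33 in Mu-inactive anthers. The median over all probes was -0.01 in both lines. The only calls in the list concerned 1.5 mm and 1 gene, a topoisomerase in Mu-active anthers.

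GRMZM2G021270, annotated as a type IIA DNA topoisomerase, which passes one DNA duplex through another, had its highest mean at 1.5 mm in both lines. The intensities were 1210.5, 807, 1191 and 1371 at 1.0 mm, 2666, 2121, 2078 and 2042 at 1.5 mm, and 808, 969, 976 and 1962 at 2.0 mm in Mu-active anthers. They were 1052, 836, 872 and 1524 at 1.0 mm, 1996, 1673, 1919 and 1850.2 at 1.5 mm, and 1298, 1061, 720.2 and 2307 at 2.0 mm in Mu-inactive anthers. At 1.5 mm all arrays were above those of 1.0 mm in both lines, and at 2.0 mm array 4 read above the other 3 in both. In Mu-active anthers it rose by 0.98 ± 0.25 (adjusted p = 0.0489) to 1.5 mm and fell by 1.00 ± 0.25 (adjusted p = 0.0464) to 2.0 mm. The corresponding values in Mu-inactive anthers were 0.84 ± 0.31 (adjusted p = 0.111) and -0.59 ± 0.31 (adjusted p = 0.272), and without the step between arrays the first of the changes was 0.00 in Mu-active and -0.18 in Mu-inactive anthers. Both Mu-active calls were lost in 10 of the 12 fits without 1 array. For 2.0 over 1.5 mm 1.94% of all probes were called higher and 1.66% lower in Mu-active anthers.

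A gene annotated as another part of type IIA topoisomerase, GRMZM2G121210, averaged 10941 ± 1897 at 1.0 mm, 9321 ± 1703 at 1.5 mm and 7201 ± 1842 at 2.0 mm in Mu-active anthers. It averaged 9233 ± 1132 at 1.0 mm, 10117 ± 1721 at 1.5 mm and 6867 ± 1103 at 2.0 mm in Mu-inactive anthers (SD, n = 4). Neither line passed the test for 2.0 over 1.0 mm, with -0.63 ± 0.22 (adjusted p = 0.0853) in Mu-active and -0.43 ± 0.15 (adjusted p = 0.0774) in Mu-inactive anthers.

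A MutS protein of mismatch repair, GRMZM2G093623, had 86.5, 87.7, 92.9 and 101 at 1.0 mm, 142, 135, 103 and 131 at 1.5 mm, and 128, 129, 118 and 111 at 2.0 mm in Mu-active anthers. It had 96.2, 92.3, 93.2 and 109 at 1.0 mm, 118, 147, 127 and 113 at 1.5 mm, and 117, 136, 118 and 119 at 2.0 mm in Mu-inactive anthers. In both lines every array of 1.5 and 2.0 mm lay above every array of 1.0 mm. The changes for 2.0 over 1.0 mm were 0.40 ± 0.10 (adjusted p = 0.0267) in Mu-active and 0.33 ± 0.09 (adjusted p = 0.0376) in Mu-inactive anthers, under the fold required for a call, and turned to -0.06 and -0.19 without the step between arrays.

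RPA1a (GRMZM2G115013), a subunit of the single-strand binding complex whose probe is shown above, averaged 893 ± 122 at 1.0 mm, 1285 ± 422 at 1.5 mm and 932 ± 65.1 at 2.0 mm in Mu-active anthers. In Mu-inactive anthers it averaged 886 ± 155 at 1.0 mm, 1145 ± 188 at 1.5 mm and 819 ± 125 at 2.0 mm (SD, n = 4). The 3 lengths overlapped in both lines. The change for 1.5 over 1.0 mm was 0.46 ± 0.22 (adjusted p = 0.232) in Mu-active and 0.37 ± 0.15 (adjusted p = 0.136) in Mu-inactive anthers. Its other probe, ON in all 6 groups, had the opposite sign for this step in Mu-active anthers (-0.21, not called). For 2.0 over 1.0 mm the 2 probes had -0.38 to 0.07 in Mu-active and -0.58 to -0.11 in Mu-inactive anthers, none of them called.

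The helicases of the list were not called either. GRMZM2G097605, a DEXD-box helicase, had a change of -0.81 ± 0.25 (adjusted p = 0.0568) in Mu-active and -0.73 ± 0.23 (adjusted p = 0.0579) in Mu-inactive anthers for 2.0 over 1.0 mm, values that were -1.23 and -1.16 with median scaling. GRMZM2G055807, described as the repair helicase XPB, had -0.29 ± 0.11 (adjusted p = 0.11) in Mu-active and 0.00 ± 0.13 (adjusted p = 0.987) in Mu-inactive anthers. GRMZM2G122306 with an OB fold had -0.53 ± 0.23 (adjusted p = 0.16) in Mu-active and -0.45 ± 0.16 (adjusted p = 0.0763) in Mu-inactive anthers.

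Both probes of the RuvA-like GRMZM2G061023 shown above gave small changes of one sign. For 2.0 over 1.0 mm the brighter probe had -0.25 ± 0.10 (adjusted p = 0.153) in Mu-active and -0.31 ± 0.11 (adjusted p = 0.0806) in Mu-inactive anthers, and the other probe -0.08 ± 0.10 (adjusted p = 0.671) and -0.19 ± 0.15 (adjusted p = 0.454). GRMZM2G470438, a zinc finger protein of the GRF type, had -0.21 ± 0.12 (adjusted p = 0.296) in Mu-active and -0.24 ± 0.11 (adjusted p = 0.154) in Mu-inactive anthers.

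At or near the detection limit were the gene described as SWI1/DYAD, PCNA2 and a Ku protein. GRMZM2G300786 (SWI1/DYAD) averaged 93.3 ± 6.84 at 1.0 mm, 96.8 ± 16.7 at 1.5 mm and 86.5 ± 7.84 at 2.0 mm in Mu-active and 89.5 ± 3.09 at 1.0 mm, 87.3 ± 9.65 at 1.5 mm and 96.6 ± 9.88 at 2.0 mm in Mu-inactive anthers. PCNA2 (GRMZM2G108712), a sliding clamp of DNA polymerase, averaged 86.4 ± 9.51 at 1.0 mm, 77.4 ± 8.54 at 1.5 mm and 85.9 ± 7.87 at 2.0 mm in Mu-active and 86.8 ± 7.04 at 1.0 mm, 82.4 ± 6.33 at 1.5 mm and 93.0 ± 10.7 at 2.0 mm in Mu-inactive anthers, and was ON in Mu-active anthers of 2.0 mm only, with 3 arrays above the limit there, against 2 of 4 in Mu-inactive anthers of 2.0 mm. For the Ku protein of end joining, GRMZM2G137968, array 2 of 1.5 mm read 189 in the Mu-active and 879.8 in the Mu-inactive channel, and all other arrays of that length read under 85 in both lines. This brightest probe was ON in Mu-active anthers of 1.0 mm only. The other probe of the Ku gene was ON at 1.0 mm and not at 1.5 or 2.0 mm, in both lines.

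Of the 4 genes in the cytoskeleton list 0 were called by limma in either line at the brightest probe, with 1 in Mu-active and 1 in Mu-inactive anthers at an unadjusted p under 0.05, and the change for 2.0 over 1.0 mm ranged from -0.21 to 0.32 in Mu-active and from -0.38 to 0.32 in Mu-inactive anthers. With 4.34% of all probes called higher and 4.42% lower in Mu-active, and 5.36% and 5.29% in Mu-inactive anthers, 0 of 4 does not set the list apart. The list itself is uncertain. In the supplement GRMZM5G878823 follows a row described as kinesin 1-like, and GRMZM2G012030 a row described as vinculin, but both were kept under metabolism. GRMZM5G878823 was called higher for 2.0 over 1.0 mm in Mu-active anthers (0.90, adjusted p = 0.037 in limma), a call lost in 8 of the 12 fits without 1 array. GRMZM2G092232, a kinesin, carries the motor domain that moves along microtubules, and its 3 probes disagreed. The brightest had 0.00 ± 0.23 (adjusted p = 0.997) in Mu-active and 0.32 ± 0.21 (adjusted p = 0.346) in Mu-inactive anthers, while another had -0.67 ± 0.14 (adjusted p = 0.0126), called lower, and -0.53 ± 0.14 (adjusted p = 0.0246), under the fold. The second kinesin, GRMZM2G122965, averaged 274 ± 76.9 at 1.0 mm, 347 ± 82.5 at 1.5 mm and 303 ± 90.9 at 2.0 mm in Mu-active and 399 ± 27.2 at 1.0 mm, 355 ± 76.2 at 1.5 mm and 307 ± 31.8 at 2.0 mm in Mu-inactive anthers. GRMZM2G372180, with an actin-binding calponin domain, had -0.21 ± 0.10 (adjusted p = 0.211) in Mu-active and 0.01 ± 0.13 (adjusted p = 0.975) in Mu-inactive anthers, and GRMZM2G324390 had 0.32 ± 0.11 (adjusted p = 0.0761) and 0.13 ± 0.14 (adjusted p = 0.598) in the same lines.

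**Figure D3:**
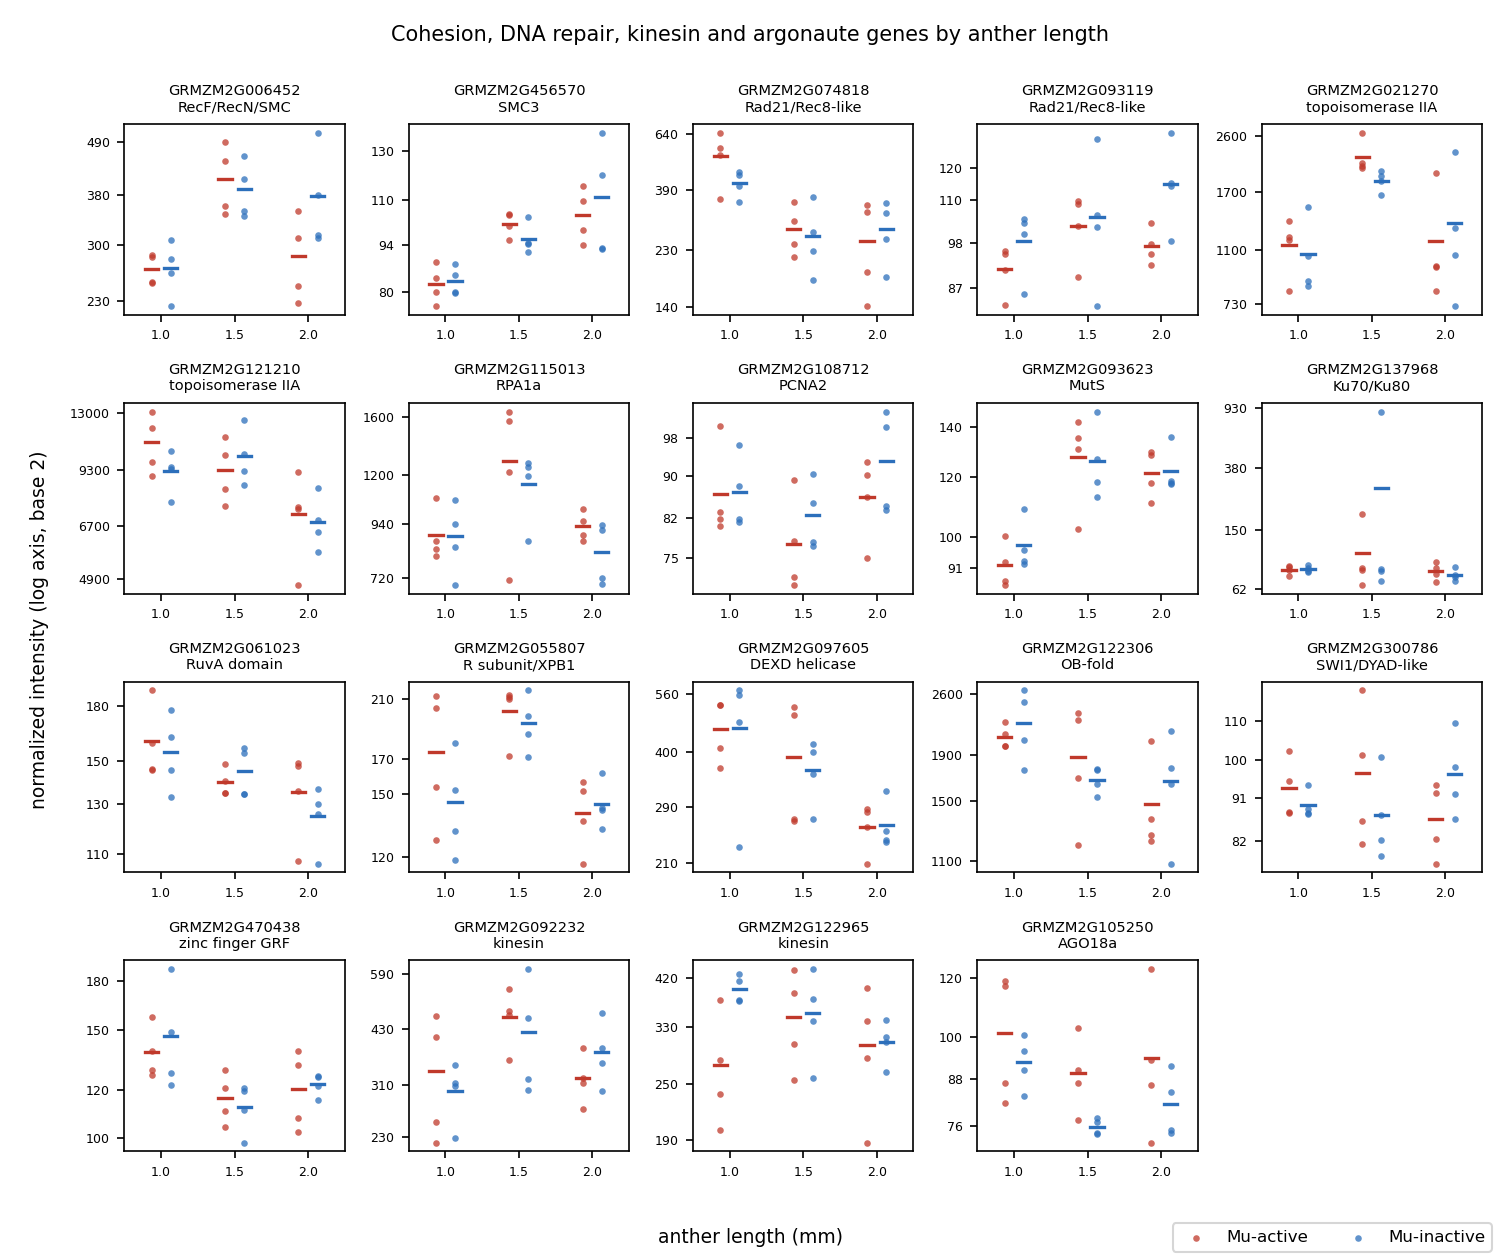
Normalized intensity (log axis) of genes of cohesion, DNA repair, kinesins and the argonaute AGO18a at 1.0, 1.5 and 2.0 mm, Mu-active left of Mu-inactive, 1 point per array with the mean as a bar. Arrays of 1.5 mm lie above those of 1.0 mm for the SMC protein GRMZM2G006452 and the topoisomerase GRMZM2G021270, and those of 2.0 mm lie below 1.0 mm for the kleisin GRMZM2G074818.

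Of the 9 genes of RNA processing, translation and argonautes 2 rose and 0 fell in Mu-active anthers, and 1 rose and 0 fell in Mu-inactive anthers, for 2.0 over 1.0 mm. Of all probes 4.34% were called higher and 4.42% lower in Mu-active anthers, and 5.36% and 5.29% in Mu-inactive anthers. The list was not tested against these shares. GRMZM2G163514, described as like Leafbladeless1, which in maize acts in the making of trans-acting small RNAs, had 567, 347, 552 and 394 at 1.0 mm, 523, 537, 679 and 358 at 1.5 mm, and 2545, 3017, 1294 and 753 at 2.0 mm in Mu-active anthers. In Mu-inactive anthers it had 441, 393, 437 and 466 at 1.0 mm, 673, 629, 410.2 and 739.8 at 1.5 mm, and 2343, 771, 1763 and 836 at 2.0 mm. At 2.0 mm all arrays exceeded those of both shorter lengths in each line, with a wide spread among the arrays of 2.0 mm. It rose by 1.86 ± 0.36 (adjusted p = 0.00935) in Mu-active and 1.56 ± 0.34 (adjusted p = 0.0118) in Mu-inactive anthers, and no array left out removed either call, but without the step between arrays neither was called, with 0.87 (adjusted p = 0.171) in Mu-active and 0.56 (adjusted p = 0.241) in Mu-inactive anthers.

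AGO18a was dim throughout, and its other probe was ON in no group. Its intensities were 119, 117, 86.8 and 81.7 at 1.0 mm, 103, 77.5, 90.3 and 87.0 at 1.5 mm, and 93.3, 123, 86.4 and 72.3 at 2.0 mm in Mu-active anthers. They were 90.3, 95.8, 101 and 83.3 at 1.0 mm, 77.0, 74.2, 77.9 and 74.4 at 1.5 mm, and 91.4, 75.1, 84.5 and 74.4 at 2.0 mm in Mu-inactive anthers, where the spot was not well above background on any array of 1.5 mm. In Mu-inactive anthers the level of 1.0 mm was 1.22-fold that of 1.5 mm, with a change of -0.28 ± 0.08 (adjusted p = 0.0549) in the fit, not called. For 2.0 over 1.0 mm AGO18a had -0.11 ± 0.14 (adjusted p = 0.657) in Mu-active and -0.19 ± 0.08 (adjusted p = 0.161) in Mu-inactive anthers. A translation initiation factor, GRMZM2G349996 (eIF1A), was called in Mu-active anthers only and lost there without any of 5 single arrays, with 1.81 ± 0.44 (adjusted p = 0.0228), beside 0.92 ± 0.42 (adjusted p = 0.173) in Mu-inactive anthers. GRMZM2G173428, with an RNA recognition motif, was called lower at 1.5 than at 1.0 mm in Mu-inactive anthers, with -1.68 ± 0.37 (adjusted p = 0.0191), beside -1.36 ± 0.46 (adjusted p = 0.116) in Mu-active anthers, and the call was lost without replicate 4 of 1.0 mm or 2 of 1.5 mm. Its other probe had 0.39 in Mu-active and 0.12 in Mu-inactive anthers, not called.

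Cell cycle and ubiquitin genes had the highest median of the 8 lists in both lines, with a change for 2.0 over 1.0 mm of 0.92 in Mu-active and 0.90 in Mu-inactive anthers over 6 genes. Of these 2 rose in Mu-active anthers and 3 in Mu-inactive anthers, beside 4.34% and 5.36% of all probes, and 0 fell, beside 4.42% and 5.29%. The list was not tested against these shares. The Skp1 gene GRMZM2G032562 had 1029, 226, 171 and 1004 at 1.0 mm, 654, 2993, 6239 and 534 at 1.5 mm, and 4755, 5051, 5999 and 6251 at 2.0 mm in Mu-active anthers. It had 1953, 1325, 626 and 956 at 1.0 mm, 4209, 3689.6, 795 and 1971 at 1.5 mm, and 4788, 3342, 5829 and 5711 at 2.0 mm in Mu-inactive anthers. At 2.0 mm every array lay above every array of 1.0 mm, and the arrays of 1.5 mm overlapped both. It rose by 3.62 ± 0.86 (adjusted p = 0.0216) in Mu-active and 2.11 ± 0.44 (adjusted p = 0.00958) in Mu-inactive anthers. Its mean at 1.0 mm was 607 ± 473 in Mu-active and 1215 ± 569 in Mu-inactive anthers (SD, n = 4). The Mu-active call was lost without replicate 2 or 3 of 1.0 mm and without replicate 1 or 2 of 2.0 mm, with an adjusted p of up to 0.0609. The Mu-inactive call was lost in a limma fit of both lines together with the array as a random block (adjusted p = 0.0791). The other SKP1-like gene, GRMZM2G060394, had 0.86 ± 0.56 (adjusted p = 0.375) in Mu-active and 0.29 ± 0.37 (adjusted p = 0.658) in Mu-inactive anthers.

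GRMZM2G336761, with a RING or U-box zinc finger of the kind that ubiquitin ligases use, had 795, 1006, 233 and 210.3 at 1.0 mm, 174, 675, 719.7 and 784 at 1.5 mm, and 2162, 1474, 2598 and 2076 at 2.0 mm in Mu-active anthers. In Mu-inactive anthers its values were 366, 861, 287 and 274 at 1.0 mm, 273, 298, 229 and 289.5 at 1.5 mm, and 1104, 499, 1487 and 1122 at 2.0 mm. The arrays of 2.0 mm stood above all others in Mu-active anthers, but overlapped those of 1.0 mm in Mu-inactive anthers. It rose by 2.19 ± 0.62 (adjusted p = 0.043) in Mu-active and 1.30 ± 0.40 (adjusted p = 0.0489) in Mu-inactive anthers. These calls were close to the threshold, and without 1 array the Mu-active call was lost in 9 and the Mu-inactive call in 10 of the 12 fits. In the limma fit with a random array block the Mu-inactive call was lost too (adjusted p = 0.0967).

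The inhibitor of cyclin-dependent kinases cki2 (GRMZM2G101613), whose probe is shown above, was called higher at 2.0 mm in Mu-inactive anthers. Its intensities in Mu-active anthers were 328, 254, 226 and 262 at 1.0 mm, 194, 496, 519 and 209 at 1.5 mm, and 821, 583, 487 and 329.9 at 2.0 mm. Those in Mu-inactive anthers were 272, 166, 228 and 213 at 1.0 mm, 277, 346, 222 and 251 at 1.5 mm, and 1399, 1189, 717 and 627 at 2.0 mm. In both lines the arrays of 2.0 mm lay above all arrays of 1.0 mm, and in Mu-inactive anthers above those of 1.5 mm as well. The change for 2.0 over 1.0 mm was 0.99 ± 0.36 (adjusted p = 0.101) in Mu-active anthers, not called, and 2.10 ± 0.21 (adjusted p = 0.000235) in Mu-inactive anthers, called higher. The difference between the lines in this change was -1.11 on the log2 scale, with an adjusted p of 0.324, so the lines were not shown to differ. In Mu-inactive anthers the rise for 2.0 over 1.5 mm was 1.78 ± 0.21 (adjusted p = 0.00171), where 2.99% of all probes were called higher and 3.11% lower.

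Among 10 kinases, phosphatases and signalling genes 2 rose and 1 fell in Mu-active anthers for 2.0 over 1.0 mm, beside 4.34% and 4.42% of all probes. In Mu-inactive anthers 1 rose and 1 fell, beside 5.36% and 5.29%. The list was not tested against these shares. The serine/threonine phosphatase GRMZM2G109496 had 2032, 789.7, 971 and 2149 at 1.0 mm, 1046, 3166, 3884 and 1155 at 1.5 mm, and 6270.3, 5454, 7288 and 6089 at 2.0 mm in Mu-active anthers. It had 3491, 2541, 1196 and 1513 at 1.0 mm, 2472, 3299.6, 1258 and 2588 at 1.5 mm, and 5651, 3760.5, 4934 and 5451 at 2.0 mm in Mu-inactive anthers. In both lines all arrays of 2.0 mm exceeded all arrays of the shorter lengths. It rose by 2.21 ± 0.48 (adjusted p = 0.0145) in Mu-active and 1.29 ± 0.31 (adjusted p = 0.0171) in Mu-inactive anthers, the Mu-inactive call being lost without replicate 3 of 1.0 mm or of 2.0 mm (adjusted p up to 0.0527). A random array block in the limma fit also removed the Mu-inactive call (adjusted p = 0.0611).

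The Ste20-like kinase GRMZM2G135073 fell in both lines. In Mu-active anthers it had 266, 229.6, 270.5 and 251 at 1.0 mm, 238, 179.6, 215 and 193 at 1.5 mm, and 112, 108, 155 and 148 at 2.0 mm. In Mu-inactive anthers it had 275, 464, 221 and 224 at 1.0 mm, 229, 178, 155 and 255 at 1.5 mm, and 98.0, 129.8, 152 and 135 at 2.0 mm. The arrays of 2.0 mm were below those of both shorter lengths in each line. The change was -0.98 ± 0.12 (adjusted p = 0.00128) in Mu-active and -1.15 ± 0.25 (adjusted p = 0.012) in Mu-inactive anthers, and was called with any single array left out and under each scaling tried.

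ITPK1 (GRMZM2G456626), an inositol phosphate kinase of phytic acid synthesis known in maize as lpa2, rose in Mu-active anthers. There its intensities were 2837, 3996, 3116 and 6783 at 1.0 mm, 3793, 8704, 15760.2 and 3516 at 1.5 mm, and 17611, 19508, 17611 and 16298 at 2.0 mm. In Mu-inactive anthers they were 5284, 9251, 5454 and 6156 at 1.0 mm, 6097, 5263, 4042 and 9868 at 1.5 mm, and 9001, 5991, 8303 and 11666 at 2.0 mm. In Mu-active anthers the arrays of 2.0 mm stood above those of both shorter lengths, and in Mu-inactive anthers the lengths overlapped. The change for 2.0 over 1.0 mm was 2.17 ± 0.45 (adjusted p = 0.0126) in Mu-active and 0.42 ± 0.30 (adjusted p = 0.391) in Mu-inactive anthers, and the difference between them of 1.75 had an adjusted p of 0.477.

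For 2.0 over 1.0 mm 2.96% of all probes were called higher in both lines. Of 5 transcription and chromatin genes the large subunit of the general factor TFIIF, RAP74 (GRMZM2G145085), rose in both lines and was the only one called for 2.0 over 1.0 mm. GRMZM5G806358, called lower in both lines and given below, follows in the supplement the row that describes a subunit of the FACT complex. If the shift of descriptions holds there too, that gene would belong to this list. RAP74 is the gene of the next values. It averaged 102 ± 13.7 at 1.0 mm, 147 ± 24.9 at 1.5 mm and 228 ± 33.5 at 2.0 mm in Mu-active anthers. It averaged 105 ± 8.90 at 1.0 mm, 156 ± 31.5 at 1.5 mm and 236 ± 49.8 at 2.0 mm in Mu-inactive anthers (SD, n = 4). The step to 1.5 mm was 0.51 in Mu-active and 0.56 in Mu-inactive anthers, and the step from there to 2.0 mm 0.64 and 0.60. It rose by 1.15 ± 0.16 (adjusted p = 0.00186) in Mu-active and 1.15 ± 0.15 (adjusted p = 0.000783) in Mu-inactive anthers, and no array left out removed a call. GRMZM2G351810, a bHLH factor, and GRMZM2G105387, MADS32, were not called, with 0.26 and -0.44 in Mu-active and 0.24 and -0.03 in Mu-inactive anthers. For 1.5 over 1.0 mm GRMZM2G063316 of this list was called higher in Mu-inactive anthers, with 0.75 (adjusted p = 0.029 in limma). There 2.73% of all probes were called higher, and the call was lost in 6 of the 12 fits without 1 array.

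The remaining 62 genes were of metabolism, transport and other roles. For 2.0 over 1.0 mm they held 11 rises and 2 falls in Mu-active anthers, beside 4.34% and 4.42% of all probes. In Mu-inactive anthers they held 7 rises and 3 falls, beside 5.36% and 5.29%. GRMZM2G041418, described as an NADH dehydrogenase, had 855, 419.7, 1049 and 2524 at 1.0 mm, 3086, 5315, 5636 and 2096 at 1.5 mm, and 2522, 2889, 3889.7 and 4495 at 2.0 mm in Mu-active anthers. It had 2477, 2582, 1496 and 1609.5 at 1.0 mm, 7195, 7133, 3324 and 6479 at 1.5 mm, and 4646, 3266, 6116 and 6081 at 2.0 mm in Mu-inactive anthers. The arrays of 1.5 mm lay above those of 1.0 mm without overlap in Mu-inactive anthers and with overlap in Mu-active anthers. For 1.5 over 1.0 mm it rose by 1.92 ± 0.46 (adjusted p = 0.0415) in Mu-active and 1.54 ± 0.30 (adjusted p = 0.0119) in Mu-inactive anthers, where 2.73% of all probes were called higher and 3.31% lower in the Mu-inactive line. The Mu-active call was lost in 10 of the 12 fits without 1 array, with an adjusted p of up to 0.107. For 2.0 over 1.0 mm the rise was 1.77 ± 0.46 (adjusted p = 0.0306) in Mu-active and 1.30 ± 0.30 (adjusted p = 0.0144) in Mu-inactive anthers, the Mu-active call being lost in 7 of the 12 fits without 1 array. The Mu-inactive call for 2.0 over 1.0 mm was lost in the limma fit with a random array block (adjusted p = 0.0629).

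Of the other metabolic genes that rose in both lines, GRMZM2G116427, a metal-binding mitochondrial protein, rose by 1.29 ± 0.21 (adjusted p = 0.00446) in Mu-active and 1.32 ± 0.25 (adjusted p = 0.00641) in Mu-inactive anthers. The galactosyltransferase GRMZM2G153760 rose by 1.20 ± 0.27 (adjusted p = 0.0183) in Mu-active and 0.96 ± 0.23 (adjusted p = 0.0185) in Mu-inactive anthers, though without the step between arrays the Mu-inactive value was -0.01. Its Mu-active call was lost without replicate 3 of 1.0 mm or 2 of 2.0 mm, and its Mu-inactive call without replicate 2 of 1.0 mm or 4 of 2.0 mm. These proteins act in organelles and in the building of glycans, outside the chromosomes.

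A monodehydroascorbate or ferredoxin reductase, GRMZM2G134708, rose by 0.89 ± 0.18 (adjusted p = 0.01) in Mu-active and 0.85 ± 0.19 (adjusted p = 0.0116) in Mu-inactive anthers, values that were -0.10 and -0.16 without the step between arrays. Chorismate mutase CM1 (GRMZM2G028369), which leads to phenylalanine and tyrosine, rose by 0.80 ± 0.23 (adjusted p = 0.0493) in Mu-active and 0.72 ± 0.15 (adjusted p = 0.00813) in Mu-inactive anthers, values that turned to -0.17 and -0.23. With median scaling neither gene passed the p threshold in either line, and the Mu-active call of CM1 was lost in 9 of the 12 fits without 1 array. The genes GRMZM2G012030, GRMZM2G019596, GRMZM2G011078 and GRMZM5G842071 changed by 0.09, 0.33, 0.07 and 0.13 in Mu-active anthers and by 0.21, -0.16, -0.09 and 0.06 in Mu-inactive anthers, none of them called, while GRMZM2G019596 rose by 0.63 ± 0.16 (adjusted p = 0.0486) for 2.0 over 1.5 mm in Mu-active anthers, a call lost in 10 of the 12 fits without 1 array.

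The other gene that fell in both lines was GRMZM5G806358. Its intensities were 1592, 1333, 1221 and 849.5 at 1.0 mm, 814, 727, 518 and 581 at 1.5 mm, and 573, 666, 487 and 468 at 2.0 mm in Mu-active anthers. They were 719.7, 901, 1044 and 809 at 1.0 mm, 725, 638, 808 and 749.9 at 1.5 mm, and 499.8, 308, 614 and 550.1 at 2.0 mm in Mu-inactive anthers. In each line all arrays of 2.0 mm were below all arrays of 1.0 mm, and in Mu-active anthers those of 1.5 mm were below as well. The change was -1.17 ± 0.12 (adjusted p = 0.000451) in Mu-active and -0.85 ± 0.16 (adjusted p = 0.00609) in Mu-inactive anthers on the log2 scale, and no array left out removed it. Its other probe had -0.15 in Mu-active and -0.17 in Mu-inactive anthers, not called. TIM14 (GRMZM2G029385), a part of the import motor of mitochondria, rose by 1.86 ± 0.40 (adjusted p = 0.0171) to 1.5 mm and fell by 1.50 ± 0.40 (adjusted p = 0.0398) to 2.0 mm in Mu-inactive anthers. Its changes for the same steps were 1.48 ± 0.58 (adjusted p = 0.163) and -0.89 ± 0.58 (adjusted p = 0.45) in Mu-active anthers, where neither was called. The rise was lost without replicate 1 of 1.5 mm, and the fall in 8 of the 12 fits without 1 array.

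Among the genes called in 1 line only, GRMZM2G050684, GRMZM2G103287 and ITPK1 were called higher in Mu-active anthers with any single array left out. The same held for cki2 in Mu-inactive anthers. The CBS domain protein GRMZM2G050684 had 1424, 1436, 980.0 and 980.2 at 1.0 mm, 1254, 1044, 993 and 1246 at 1.5 mm, and 2775, 3137, 1571 and 2102 at 2.0 mm in Mu-active anthers. Its intensities in Mu-inactive anthers were 2381, 1403, 1131 and 1245 at 1.0 mm, 2204, 1643, 1304 and 1232 at 1.5 mm, and 2945, 1823, 1842 and 3199 at 2.0 mm. In Mu-active anthers the arrays of 2.0 mm lay above those of both shorter lengths, and in Mu-inactive anthers all lengths overlapped. The change for 2.0 over 1.0 mm was 0.97 ± 0.15 (adjusted p = 0.00371) in Mu-active and 0.69 ± 0.25 (adjusted p = 0.092) in Mu-inactive anthers.

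GRMZM2G103287, an aldose 1-epimerase of sugar metabolism, changed by 1.22 ± 0.23 (adjusted p = 0.00802) in Mu-active and 0.58 ± 0.20 (adjusted p = 0.0708) in Mu-inactive anthers, and its arrays followed the same pattern of overlap, while its other probe had -0.21 in Mu-active and -0.24 in Mu-inactive anthers, not called. The heat shock protein GRMZM2G162968, of the ClpA/B chaperone kind, was called in Mu-inactive anthers, where it rose by 0.80 ± 0.21 (adjusted p = 0.0242), beside 0.72 ± 0.30 (adjusted p = 0.145) in Mu-active anthers, and was lost without replicate 2 or 3 of 1.0 mm. Its other 4 probes had -0.18 to 0.26 in Mu-active and -0.06 to 0.13 in Mu-inactive anthers, none of them called.

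**Figure D4:**
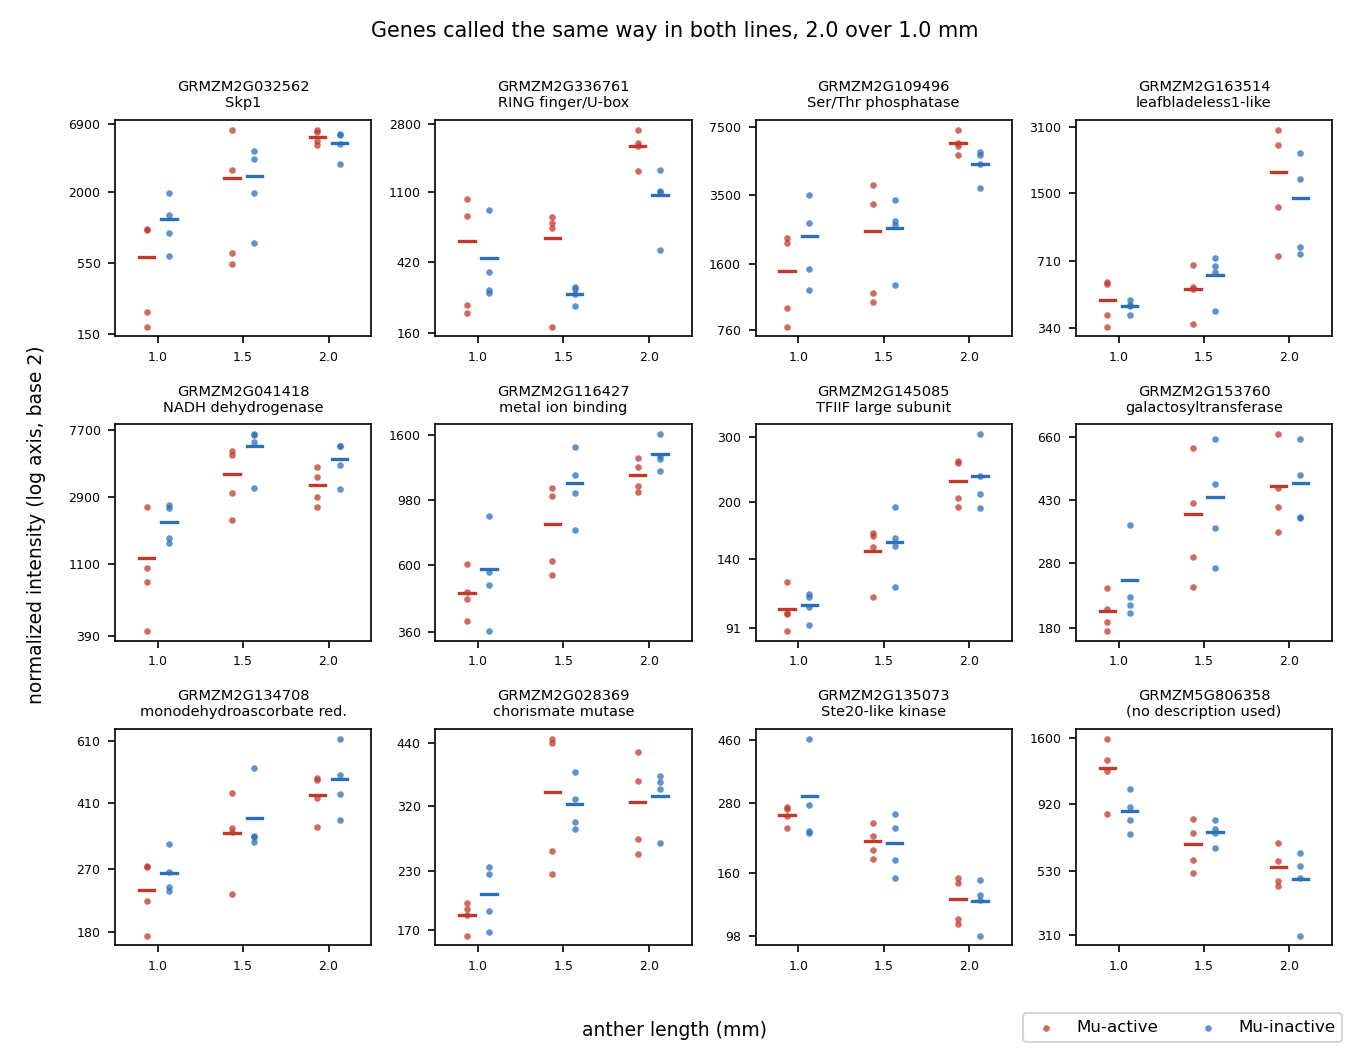
Normalized intensity (log axis) of the 12 genes called in both lines for 2.0 over 1.0 mm, at 1.0, 1.5 and 2.0 mm, Mu-active left of Mu-inactive, 1 point per array with the mean as a bar. The Skp1 gene GRMZM2G032562 spans 171 to 6251 in Mu-active anthers, and the kinase GRMZM2G135073 and GRMZM5G806358 are the 2 genes whose arrays of 2.0 mm lie below those of 1.0 mm in both lines.

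For 1.5 over 1.0 mm 5 genes rose and 1 fell in Mu-active anthers (4.42% and 0.885%), where 1.43% of all probes were called higher and 1.47% lower. In Mu-inactive anthers 6 rose and 1 fell (5.31% and 0.885%), where 2.73% of all probes were called higher and 3.31% lower. For 2.0 over 1.5 mm 4 rose and 4 fell in Mu-active anthers (3.54% each), beside 1.94% and 1.66% of all probes, and 5 rose and 3 fell in Mu-inactive anthers (4.42% and 2.65%), beside 2.99% and 3.11%. The change for 1.5 over 1.0 mm was above 0 in 79 of the 113 genes in Mu-active and 76 in Mu-inactive anthers, beside 44.1% and 47.7% of ON probes. Its median over the 113 genes was 0.22 in Mu-active and 0.17 in Mu-inactive anthers, beside -0.04 and -0.02 over ON probes, and with median scaling it was 0.07 and -0.01, beside -0.05 and -0.04.

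Of the 113 genes, 50 (44.2%) had their highest mean at 1.5 mm in Mu-active anthers, as did 26.7% of ON probes, and 52 (46.0%) in Mu-inactive anthers, as did 29.2% of ON probes. With median scaling these shares came to 33.6% of the genes and 29.5% of ON probes in Mu-active anthers, and to 31.0% and 27.8% in Mu-inactive anthers. The highest mean was at 1.0 mm for 26 genes and at 2.0 mm for 37 in Mu-active anthers, as for 42.9% and 30.5% of ON probes, and for 25 and 36 genes in Mu-inactive anthers, as for 40.2% and 30.7% of ON probes. The order of the lengths depended on the scaling. With median scaling 46 genes in Mu-active and 52 in Mu-inactive anthers were highest at 1.0 mm, more than the 38 and 35 at 1.5 mm, beside 46.8% and 45.7% of ON probes at 1.0 mm. Without the step between arrays 94 and 100 genes were highest at 1.0 mm and 3 and 4 at 1.5 mm, beside 92.9% and 92.4% of ON probes at 1.0 mm.

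Several probes were present for 28 of the genes and a single probe for 85. In 10 of the 28 the probes had changes of both signs for 2.0 over 1.0 mm in both lines, and in 0 were probes called in opposite directions. The count of genes called in both lines depends on the choice of probe. GRMZM2G124365 had 1 of its 2 probes called higher in both lines (1.38 in Mu-active and 1.22 in Mu-inactive anthers), but not its brightest. GRMZM2G032003 had 3 of 3 probes called higher in Mu-active and 2 of 3 in Mu-inactive anthers, and its brightest in Mu-active anthers only.

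Between the lines, 0 of the 149 probes passed at an adjusted p under 0.05 in limma at any length, where 0.376%, 0.471% and 0.866% of all probes passed at 1.0, 1.5 and 2.0 mm. At an unadjusted p of at most 0.05, 14, 9 and 22 of the 149 probes passed at these lengths, beside 8.85%, 10% and 12.3% of all probes. The lowest adjusted p of these probes in limma was 0.191 at 1.0 mm and 0.0608 at 2.0 mm. At 1.5 mm it was 0.0739, for GRMZM2G000397 with a log2 ratio of Mu-active over Mu-inactive of 1.98. The change of the ratio between lengths passed for 0 of the probes, with a lowest adjusted p of 0.195, where 0.00952% of all probes passed for 1.5 against 1.0 mm, 0% for 2.0 against 1.5 mm and 0.0523% for 2.0 against 1.0 mm, so the genes called in 1 line only were not shown to differ between the lines.

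Transcripts of other anther cells moved over the same lengths. The supplement lists probes enriched in dissected cell types of younger anthers, and without the genes described here 1892 of them were of archesporial cells, 945 of middle layer and tapetum, 1072 of epidermis and endothecium and 805 of connective and vasculature, with 1825, 911, 1052 and 804 ON in Mu-active anthers of 1.0 mm. The summed intensity of the archesporial list was 1746850 to 1937840 at 1.0 mm and 1704550 to 1846960 at 2.0 mm in Mu-active anthers, and 1697550 to 1732130 and 1674550 to 1770630 in Mu-inactive anthers, so that the arrays overlapped. That of the middle layer and tapetum list was 514057 to 621116 at 1.0 mm and 385378 to 462114 at 2.0 mm in Mu-active anthers, and 563585 to 642208 and 390483 to 455761 in Mu-inactive anthers, with no overlap.

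For 2.0 over 1.0 mm, 29 middle layer and tapetum probes were called higher and 102 lower in Mu-active anthers, and 33 and 115 in Mu-inactive anthers. The connective and vasculature list had 10 called higher and 189 lower in Mu-active anthers, and 24 and 209 in Mu-inactive anthers. The epidermis and endothecium list had 140 higher and 44 lower in Mu-active anthers, and 190 and 72 in Mu-inactive anthers, and the archesporial list had 150 and 127 in Mu-active anthers and 205 and 137 in Mu-inactive anthers. The part of these shifts in the changes of the meiosis-associated genes was not tested.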

How the data were processed

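RNA of whole anthers of both lines was hybridised on 12 two-colour Agilent arrays, 4 per anther length. The authors deposited scanner output of Agilent Feature Extraction in which intensity is not normalized across arrays, and the median foreground of each channel was used without background subtraction. The deposited log10 ratios of Cy5 over Cy3 served as an alternative for the difference between the lines, and the authors' deposited table of log2 ratios served to check which channel held which line.

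In R 4.3.3 with limma 3.58.1, channels were normalized by loess within arrays and by quantiles across arrays. Each line was fitted over the 3 lengths with a dye term, and the difference between the lines was fitted on log2 ratios without outlier spots. P-values were adjusted by Benjamini-Hochberg over 42034 probes, and the fits were tested on simulated data. Slide and length coincide, and the number of arrays limits the precision.

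The genes and lists were chosen with earlier results of these data known. Because descriptions in the supplement are shifted against their genes in places, 7 genes were moved between lists after their values had been seen, 2 by the RefSeq table and 5 by the neighbouring row. Not every neighbour of a moved gene was moved in turn, so the lists and their counts are uncertain. Genes named were all of the cohesion, DNA and kinesin lists as first written with AGO18a (26), the 5 largest rises and up to 5 largest falls for 2.0 over 1.0 mm, as the mean over the lines, among genes called the same way in both (7), those passing between the lines (0) and those whose detection differed between lengths in both lines (5), in all 35 genes. Of these, 1 gene of the DNA list is counted but not reported here. The other genes named were chosen after their values were seen. Alternatives covered scaling, background correction, the dye term, the call threshold, the choice of probe, the detection limit, the array number as a block, a random array block and each array left out.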

Additional observations from a re-analysis of the deposited data

Results flagged for a closer look

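Among 240 groups of 4 arrays of the genes named by rule or called in both lines, 14 held 1 array that stood far from the other 3 by Dixon's criterion, and chance alone marks about 1 in 20 groups.

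The Ku protein GRMZM2G137968 read 189 on array 2 of 1.5 mm in Mu-active anthers, where the other arrays read 65.6 to 84.3. On the same array it read 879.8 in Mu-inactive anthers, where the others read 69.1 to 82.7. The topoisomerase GRMZM2G021270 read 2666 on array 1 of 1.5 mm in Mu-active anthers, beside 2042 to 2121 on the others, and 1962 on array 4 of 2.0 mm in Mu-active anthers, beside 808 to 976. The RING or U-box gene GRMZM2G336761 read 861 on array 2 of 1.0 mm in Mu-inactive anthers, beside 274 to 366.

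At 1.0 mm in Mu-active anthers, PCNA2 (GRMZM2G108712) read 101 on array 3, beside 80.4 to 83.0. At 1.5 mm in Mu-active anthers, the XPB helicase GRMZM2G055807 read 172 on array 4, below the 210.2 to 213 of the others. At 1.0 mm in Mu-inactive anthers, GRMZM2G019596 read 1407 on array 2, beside 937 to 1003. The galactosyltransferase GRMZM2G153760 read 363 on array 1 of that group, beside 198 to 221, GRMZM2G300786 (described as SWI1/DYAD) read 94.1 on array 3, beside 87.6 to 88.7, and Exo70 (GRMZM2G464382) read 89.6 on array 2, where the next highest read 76.6.

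At 1.5 mm in Mu-inactive anthers, the reductase GRMZM2G134708 read 514 on array 1, beside 319.6 to 332, and GRMZM2G177461 read 129 on array 4, beside 102 to 105. At 2.0 mm in Mu-inactive anthers, the MutS gene GRMZM2G093623 read 136 on array 2, beside 117 to 119. The cause was not tested for any of these arrays.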

How the results depend on the processing

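Counts of genes called for 2.0 over 1.0 mm moved most with the scaling between arrays. Without that step 3 genes were higher in Mu-active anthers, 2 in Mu-inactive anthers and 1 in both, and 51, 56 and 45 were lower, 45.1% of the genes in Mu-active and 49.6% in Mu-inactive anthers, where 50.8% and 51.9% of ON probes were called lower. With median scaling 8 were higher in Mu-inactive anthers, and 15, 19 and 11 were lower in Mu-active anthers, Mu-inactive anthers and both. At the methods' threshold on the unadjusted p, 9, 7 and 4 genes were lower in the same groups, and with the dimmest probe of each gene 1 was lower in Mu-active anthers and 1 in both. Background correction, the dye term and the restriction to ON probes kept these counts within 1.5 times. With a random array block 18, 10 and 7 genes were higher and 5, 3 and 3 lower in Mu-active anthers, Mu-inactive anthers and both.

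With 1 array left out, 9 to 19 genes were higher and 2 to 5 lower in Mu-active anthers, 9 to 17 and 2 to 4 in Mu-inactive anthers, and 4 to 9 and 2 to 3 in both. The Mu-active count of higher genes was 9 without replicate 3 of 1.0 mm and 11 without replicate 1 or 4 of 2.0 mm, and that of lower genes 2 without replicate 1, 2 or 3 of 1.0 mm or 1 or 2 of 2.0 mm. The Mu-inactive count of lower genes was 2 without replicate 2 of 1.0 mm or 3 of 2.0 mm. Genes higher in both lines were 4 without replicate 3 of 1.0 mm and 6 without replicate 2 of 1.0 mm or 1, 3 or 4 of 2.0 mm. Of the calls, 10 of 22 in Mu-active and 10 of 17 in Mu-inactive anthers passed in every such fit.

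With the array number as a replicate block, 12 genes were higher in Mu-active anthers, 12 in Mu-inactive anthers and 7 in both, 3, 3 and 2 were lower, and 0 probes passed between the lines. Deviations of arrays of one number correlated with r of -0.11 to 0.19 in Mu-active and -0.14 to 0.24 in Mu-inactive anthers, above 0.1 in 2 and 5 of 12 pairs, so the number was not taken to pair the samples.

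Between the lines 11 probes passed at the methods' threshold, at 1.0, 1.5 and 2.0 mm 2.68%, 1.34% and 4.70% of the probes of the genes, beside 2.18%, 1.99% and 2.80% of all probes, and 0 to 1 probes passed the adjusted p with 1 array left out, the 1 being GRMZM2G138566 without replicate 2 of 1.0 mm. Probes ON in all groups numbered 114 to 134 under other detection limits and 118 to 124 with 1 array left out. Of 266 values under alternatives of the 7 genes with the largest changes among those called in both lines, 218 kept their call, 48 lost it and 0 turned. Other genes, among them GRMZM2G006452, CM1 and GRMZM2G093623, turned without the step between arrays, as given with their values. Median signal near that of the negative controls, above all at 1.5 and 2.0 mm, limits what dim genes can show. The causes were not tested.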
